A study of Mus musculus with 24 samples.

Results

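Interleukin-1 (IL-1) and interleukin-18 (IL-18) are inflammatory cytokines of 1 structural family, and the genes that encode them, their receptors and their inhibitors were followed here in mouse blood. IL-1β and IL-18 are made as inactive precursors that caspase-1 cuts after an inflammasome has assembled, while IL-1α is active as made. IL-1 binds the receptor IL-1R1, which signals after it has recruited the accessory protein encoded by *Il1rap*; the decoy receptor IL-1R2 and the receptor antagonist encoded by *Il1rn* hold this signal back. IL-18 binds the receptor chain encoded by *Il18r1* together with that encoded by *Il18rap*, and its binding protein keeps it from the receptor. In blood, neutrophils and monocytes are known sources of IL-1β and IL-1R2, and natural killer (NK) and T cells are known carriers of the IL-18 receptor.

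The axis was taken as 10 genes of the 29742 gene names on the array, namely *Il1a*, *Il1b*, *Il1r1*, *Il1r2*, *Il1rn*, *Il1rap*, *Il18*, *Il18r1*, *Il18rap* and *Nlrp3*, chosen by name and read by 14 of the 39429 probes. *Il1rap* had 3 probes, *Il18r1* and *Nlrp3* had 2 each, and the other 7 genes had 1. Whole blood of 24 male C57BL/6J mice was measured with 1 mouse per array, 6 mice in each of 4 groups. Young unirradiated and old unirradiated mice were 2 and 21 months old, and young and old irradiated mice of the same ages had received 4 Gy of x-rays to the whole body. Unirradiated mice were sham-irradiated, and blood was drawn by cardiac puncture 24 h after exposure. The comparisons ask how the blood transcriptome responds to x-rays at each age, how it differs between the ages without exposure, and whether the responses differ between the ages. All 4 groups share strain and sex, so no statement extends to female mice or to other strains.

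Levels below are log2 signals relative to the median of the same array, and levels of different probes cannot be set against each other. Each comparison was fitted with limma over its 12 mice, two-sided, and a gene was called when its p was below 0.005 and its Benjamini-Hochberg adjusted p, taken over all 17805 genes tested, was below 0.05. Of the 10 members, 8 passed the filters on dim and invariant probes and were tested; *Il1a* and *Il1r1* did not pass. With 6 mice in a group, their number sets the precision. Median signal ranged from 8.66 to 44.8 per array and 43.9% to 64.4% of spots lay well above background. Scan day was shared within each age and differed between the ages, and the effects of age and scan day cannot be told apart. Irradiated old replicates 4 and 6 stood apart from their group. The arrays of these mice were also the dimmest, with median signals of 8.66 and 8.84, where every other array had 14.4 or more. Whether the low signal accounts for the distance of these mice from their group was not tested. The SD of their log2 difference to the other irradiated old mice over probes was 1.67 to 1.91, against 0.44 to 0.89 among those others and 0.31 between them, and their erythroid marker sums were 17.1 and 17.2, against 14.6 to 16.3 in the other mice. Hepatocyte markers, which blood cells do not define, were high in irradiated young replicates 2, 4 and 5 and in irradiated old replicates 2, 3 and 5, with sums of 14.0 to 15.2, and less so in unirradiated young replicate 5, with 11.5. Values without these mice are given beside the results below that turn on them. Leaving out irradiated old replicates 2, 3 and 5 keeps replicates 1, 4 and 6, so that 4 and 6, which stand apart, make up most of that group.

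The probes that the results turn on are shown first, each by its first 30 of 60 bases, 5′ to 3′. The Il1b probe (A_51_P212782, mm9 chr2:129190347-129190406, minus strand, transcript NM_008361), the Il1r2 probe (A_51_P470079, chr1:40180014-40180073, plus strand, NM_010555) and the Il18rap probe (A_52_P517098, chr1:40605729-40605788, plus strand, NM_010553) read 3 of the 4 members whose groups did not overlap between the ages. The 3 Il1rap probes gave opposite differences and lie on the plus strand of chromosome 16, with the second 23.793 kb and the third 15.017 kb after the first: A_52_P467232 at chr16:26701498-26701557 (NM_134103), A_55_P2041432 at chr16:26725291-26725350 (ENSMUST00000096129) and A_55_P2041422 at chr16:26716515-26716574 (NM_008364).
Il1b, A_51_P212782: aggttcctataatatggatgagaattttta
Il1r2, A_51_P470079: ttgatccagtcacaagggaggatctgcata
Il18rap, A_52_P517098: ttccaggttctggacccaaattcgttacca
Il1rap, A_52_P467232: gatgttgtcaacgcctttgtttctaaatgt
Il1rap, A_55_P2041432: ccattttctttaaccagctcttccttgatc
Il1rap, A_55_P2041422: catacatctttcagtagtcattggcaaaat

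In unirradiated blood, most of the axis was higher in old than in young mice. The 7 members called higher of the 8 tested were *Il1r2*, *Il18rap*, *Il1b*, *Il18r1*, *Il1rn*, *Il1rap* and *Il18*, while *Nlrp3* was not called. For comparison, 63.9% of all genes tested were called, 48.5% as higher and 15.4% as lower, so that a call for higher was common among all genes under this scaling. The median difference was 1.78 over the tested members and 0.63 over all genes tested. *Il1r2* was 28th, *Il18rap* 56th and *Il1b* 96th of 17805 genes when ordered by the difference. For 4 of the 8, *Il1b*, *Il1r2*, *Il18r1* and *Il18rap*, every old mouse was above every young mouse, as was the case for 37.4% of all genes. With 4 other scalings of the arrays the share of genes called higher fell to between 4.46% and 17.1% and the share called lower rose to between 21.1% and 28.1%, and the median of all genes moved to between -0.08 and 0.14. These scalings include the authors' own deposited values. Under all 4 *Il1r2*, *Il18rap* and *Il1b* remained called as higher, and the other 4 members lost the call under 1 or more of them. Under the normexp background correction 0 members and 0 genes were called by limma, with differences of 1.44, 0.57 and 1.49 for these 3 genes.

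After irradiation, 2 of the 8 tested members were called in young mice, *Il1r2* and *Il18*, both as higher. Of all genes tested in young mice, 35.4% were called, 14.3% as higher. The median change was 1.10 over the tested members and -0.20 over all genes. In old mice 0 of 8 members were called by limma, against 24.9% of all genes (7.49% as higher and 17.4% as lower), with 1 of 8 at an unadjusted p below 0.05, and the median change was 0.57 over the members and -0.26 over all genes. Relative to that median the changes in old mice ranged from -0.95 for *Il18r1* to 1.56 for *Il1r2*. The split of calls over all genes in old mice depended on the scaling, with 11.8% higher and 12.8% lower for the 75th percentile, 12.8% and 11.3% for the median of bright probes and 8.62% and 7.97% in the authors' deposited values. A call rate this different between the ages is not a test of their difference, which is given with the interaction below.

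**Figure D1:**
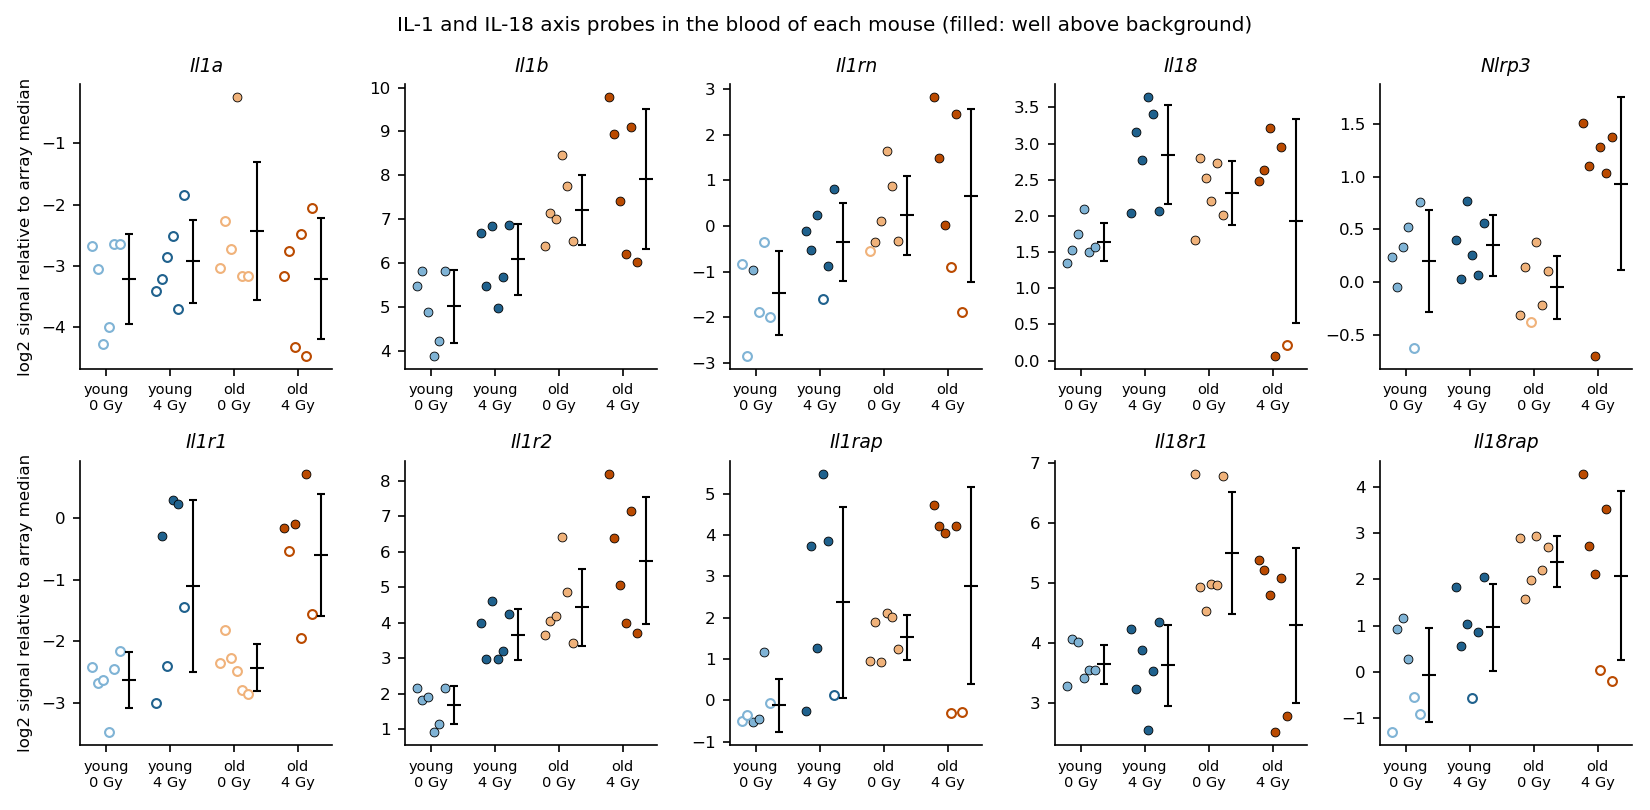
The log2 signal relative to the array median is plotted for the 10 members in each of 24 mice, by group, with the mean and SD beside each group of 6 (filled points, well above background; open points, not). The young unirradiated mice sit below every old unirradiated mouse for *Il1b*, *Il1r2*, *Il18r1* and *Il18rap*, and irradiated old mice spread widely, with *Il1rap* at -0.31 and -0.28 in replicates 4 and 6 and at 4.06 or more in the other 4.

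*Il1b* encodes IL-1β, the main secreted IL-1 of myeloid cells. Its probe is printed as 10 spots on each array, whose log2 signals varied with an SD of 0.0379 to 0.106 within an array. The lowest, median and highest levels were 3.89, 5.18 and 5.82 in young unirradiated mice and 4.97, 6.18 and 6.86 in young irradiated mice. In old mice they were 6.38, 7.07 and 8.47 without exposure and 6.03, 8.17 and 9.77 after it. Every old unirradiated mouse was above every young unirradiated mouse, whereas the irradiated and unirradiated groups overlapped at both ages. *Il1b* was 4.56-fold higher in old unirradiated mice, a log2 difference of 2.19 (SE 0.41, limma adjusted p = 0.000381), or 1.56 relative to the median of all genes. Neutrophil and monocyte markers moved with it. The summed log2 signal of 12 neutrophil genes was 10.6 to 11.9 in young and 12.5 to 14.1 in old unirradiated mice. Of these genes 9 were called higher, where 48.5% of all genes were. Of these 12 genes, 10 were well above background in all 24 mice, so the defining markers were present. Whether the difference in *Il1b* comes from the number of neutrophils was not tested, and in bulk blood fewer cells of a type and less RNA per cell cannot be told apart.

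The change of *Il1b* with irradiation was 1.07 in young mice (SE 0.43, limma adjusted p = 0.0568) and 0.71 in old mice (SE 0.65, limma adjusted p = 0.416), and neither was called. In young mice it was 1.62 and called (limma adjusted p = 0.00972) without the 4 mice with high hepatocyte markers. In old mice replicates 4 and 6 held the lowest values of their group, 6.20 and 6.03, and the change without them was 1.60, against 0.13 without replicates 2, 3 and 5. *Il1a*, which encodes IL-1α, was well above background in 1 of 24 mice, old unirradiated replicate 4 at -0.25. No difference in *Il1a* could be measured on these arrays.

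*Il1r1* encodes the signalling receptor of IL-1. Its probe (A_51_P271503) lay well above background in 3 of the 6 irradiated mice of each age and in 0 of the 6 without exposure, and was not tested with the other genes. The lowest, median and highest levels were -3.47, -2.54 and -2.15 in young unirradiated mice and -3.00, -0.87 and 0.28 in young irradiated mice. In old mice they were -2.86, -2.41 and -1.82 and, after irradiation, -1.94, -0.36 and 0.71. The irradiated mice well above background were young replicates 2, 4 and 5 and old replicates 1, 3 and 5. Since no unirradiated mouse was above background, these levels give only a bound, with the background of each array in place of the unirradiated level. *Il1r1* was at least 1.12-fold higher in irradiated than in unirradiated old mice, and this bound was not tested. A fit of every probe without filters used the levels as measured, those below background included. There the log2 change of 1.83 in old mice was called (limma adjusted p = 0.00878), as were 15.3% of probes. That p does not apply to the bound. In young mice no bound above 1 could be given. The 3 young mice above background are those with the high hepatocyte sums, 14.1 to 15.2, and the part of these cells' RNA in the *Il1r1* signal was not tested.

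*Il1rap* encodes the accessory protein of the IL-1 receptor, as a membrane form and shorter soluble forms, and its probes did not move together. The probe A_52_P467232, which represented the gene, had lowest, median and highest levels of -0.52, -0.40 and 1.16 in young and 0.92, 1.58 and 2.10 in old unirradiated mice. It was well above background in 3 of 6 of these young and 6 of 6 of these old mice, so that differences from the young level are approximate. Only young replicate 5 of the young unirradiated mice reached the range of the old mice. The difference between the ages was 1.65 (SE 0.31, limma adjusted p = 0.000394), or 1.02 relative to the median of all genes. After irradiation the levels fell into separate ranges within a group. In young mice, replicates 2, 4 and 5 lay at 3.74, 5.48 and 3.85 and the other 3 between -0.26 and 1.27. In old mice, replicates 1, 2, 3 and 5 lay between 4.06 and 4.73 and replicates 4 and 6, not well above background, at -0.31 and -0.28. With this spread the change was 2.49 in young mice (SE 0.87, limma adjusted p = 0.0309) and 1.25 in old mice (SE 0.88, limma adjusted p = 0.286), and neither was called. Leaving out irradiated young replicate 1 or 6 gave a called change in young mice, 3.02 or 2.94.

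The hepatocyte marker sum moved with *Il1rap* in young mice. It was 14.1, 15.2 and 14.3 in the irradiated young mice with high *Il1rap* and 6.08 to 6.80 in the other 3. Without the high mice of the young groups the change was 0.76. In old mice the match was not complete, as replicate 1 had the highest level of the group, 4.73, at a hepatocyte sum of 6.46, and the other 3 high mice had sums of 14.0 to 14.5. Without replicates 4 and 6 the change in old mice was 2.78 and called (limma adjusted p = 9.45e-05). Without replicates 2, 3 and 5 it was -0.14.

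**Figure D2:**
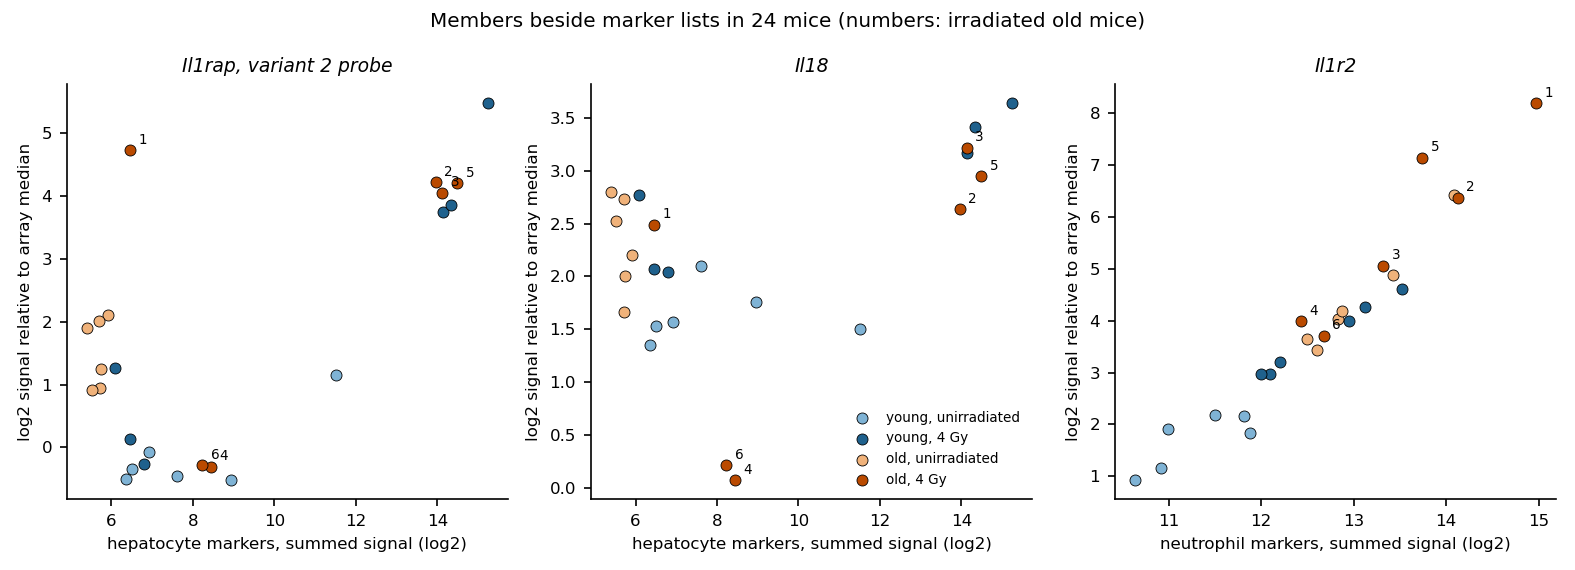
Each point is 1 of 24 mice, with the log2 level of *Il1rap* (A_52_P467232, titled variant 2 probe), *Il18* or *Il1r2* on the y axis against the summed log2 signal of hepatocyte or neutrophil markers on the x axis; numbers give the replicates of irradiated old mice. Levels of *Il1r2* follow the neutrophil sum from 0.92 at a sum of 10.6 to 8.19 at 15.0, while the high *Il1rap* levels lie at hepatocyte sums of 14.0 or more except in irradiated old replicate 1.

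A_55_P2041432, placed further along the gene, ran the other way. It was well above background in 6 of 6 young and 1 of 6 old unirradiated mice, so that the level of the latter group is largely background and differences from it are approximate. Fitted probe by probe, it was lower in old than in young unirradiated mice by a log2 difference of -2.16 (SE 0.28, limma adjusted p = 8.23e-05), with levels of 0.98 to 1.84 in young and -1.61 to 0.28 in old mice that did not overlap. After irradiation its change was -1.48 in young and 2.11 in old mice, neither called (limma adjusted p = 0.0360 and 0.0335), and the change in old mice starts from the group near background. The difference between these responses was not called (limma adjusted p = 0.175). In irradiated old mice its highest levels, 2.97 and 3.32, were those of replicates 4 and 6. A_55_P2041422 was well above background in 3 of 24 mice, all irradiated and old, and was at least 1.13-fold higher in irradiated than in unirradiated old mice. Between the ages A_55_P2041422 gave a log2 difference of 1.31, with no unirradiated mouse well above background. Because the probes disagree, the difference of *Il1rap* between the ages took the sign of the probe chosen. It was -0.26 when the probes that passed the filters were averaged, which leaves out A_55_P2041422.

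*Il1r2* encodes the decoy receptor, which binds IL-1 without passing on a signal. Its levels were 0.92, 1.87 and 2.17 (lowest, median and highest) in young unirradiated mice and 2.98, 3.60 and 4.61 in young irradiated mice. The groups did not overlap, as was the case for 9.46% of all genes in this direction. *Il1r2* was 3.94-fold higher after irradiation in young mice. This log2 change was 1.98 (SE 0.33, limma adjusted p = 0.000419), and remained between 1.45 and 2.49 under all alternatives run, called in each with a test. On the slide that held both young groups, with 2 mice of each, the difference was 1.83. Old mice had levels of 3.44, 4.11 and 6.42 without exposure and 3.71, 5.72 and 8.19 after it, in ranges that overlapped. The change in old mice was 1.31 (SE 0.76, limma adjusted p = 0.198) and not called. Without replicates 4 and 6, which held the lowest levels of the irradiated group, it was 2.26 and also not called, and without replicates 2, 3 and 5 it was 0.86.

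The largest difference of a member between the ages was that of *Il1r2*. It was 6.70-fold higher in old unirradiated mice, a log2 difference of 2.74 (SE 0.44, limma adjusted p = 0.000114), or 2.12 relative to the median of all genes. The ordered group means were 1.69 in young unirradiated, 3.67 in young irradiated, 4.44 in old unirradiated and 5.75 in old irradiated mice. Of these neighbours, only the first pair did not overlap. Neutrophil marker sums had the same order of medians (11.2, 12.6, 12.9 and 13.5). In young mice 5 of 12 neutrophil markers were called higher after irradiation, where 14.3% of all genes were. Their sums did not overlap (up to 11.88 without exposure and from 11.996 after it). In old mice 0 of 12 were called, where 7.49% of all genes were called higher. The part of neutrophils in the levels of *Il1r2* was not tested.

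*Il1rn* encodes the IL-1 receptor antagonist. It lay near background in young unirradiated mice, where 1 of 6 was well above it, and its lowest, median and highest levels were -2.84, -1.42 and -0.34 there and -1.61, -0.32 and 0.81 in young irradiated mice. Old mice had levels of -0.56, -0.11 and 1.64 without exposure and -1.89, 0.75 and 2.81 after it. Neighbouring groups overlapped in each case. *Il1rn* was 3.26-fold higher in old than in young unirradiated mice (log2 difference 1.71, SE 0.45, limma adjusted p = 0.00370), or 1.08 relative to the median of all genes. Scaling to the 75th percentile gave 1.19 with a limma adjusted p of 0.0571, which was not called. The call was also lost without old replicate 4 or 5 or young replicate 4 or 6, at log2 differences of 1.42 to 1.63. The change with irradiation was 1.13 in young mice (SE 0.46, limma adjusted p = 0.0593) and 0.44 in old mice (SE 0.75, limma adjusted p = 0.672). In old mice it was 1.46 without irradiated replicates 4 and 6, at -0.89 and -1.89 the lowest 2 of their group, and -0.22 without replicates 2, 3 and 5, not called in either case. In young mice it was 2.01 and called without the 4 mice with high hepatocyte markers (limma adjusted p = 0.00470).

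*Il18* encodes IL-18, which many tissues make without a stimulus, the liver's macrophages among them. Its lowest, median and highest levels were 1.35, 1.55 and 2.10 in young unirradiated mice and 2.04, 2.97 and 3.64 in young irradiated mice. It was 2.32-fold higher after irradiation, at 1.21 in log2 units (SE 0.28, limma adjusted p = 0.00338), although the lowest irradiated mice, replicates 1 and 6 at 2.04 and 2.07, lay within the range of the unirradiated group. Both hepatocyte and macrophage markers moved with it. The macrophage sum over 11 genes was 5.91 to 8.84 in young unirradiated and 9.63 to 11.5 in young irradiated mice. Of the 9 tested markers 9 were called higher, where 14.3% of all genes were. The highest *Il18* levels, 3.17, 3.64 and 3.41, were those of replicates 2, 4 and 5, which had the high hepatocyte sums. Without the mice with high hepatocyte markers the change was 0.63 and no longer called (limma adjusted p = 0.0461), and the part of macrophage RNA was not tested.

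In old mice *Il18* had levels of 1.66, 2.36 and 2.80 without exposure and 0.07, 2.56 and 3.22 after it. Irradiated replicates 4 and 6 lay at 0.07 and 0.21, below every unirradiated mouse, and the other 4 lay between 2.49 and 3.22. The change was -0.39 (SE 0.55, limma adjusted p = 0.597) with these mice and 0.50 without them, and -1.40 without replicates 2, 3 and 5, not called in any case. The difference of *Il18* between the ages was 0.69 (SE 0.21, limma adjusted p = 0.00768), of which 0.06 remained relative to the median of all genes. With the 4 other scalings it was 0.10 to 0.35 and was not called, and in 9 of the 12 fits that left out 1 mouse the call was lost at log2 differences of 0.59 to 0.71 (without old replicate 2, 3, 4 or 5 or any young replicate but 4).

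The receptor chain encoded by *Il18r1* was measured well above background in 24 of 24 mice (A_51_P505617). Its lowest, median and highest levels were 3.29, 3.55 and 4.07 in young unirradiated mice and 2.56, 3.71 and 4.36 in young irradiated mice, which overlapped throughout. In old mice they were 4.53, 4.97 and 6.82 without exposure and 2.52, 4.94 and 5.38 after it. *Il18r1* was 3.61-fold higher in old than in young unirradiated mice (log2 difference 1.85, SE 0.39, limma adjusted p = 0.000751), or 1.22 relative to the median of all genes, and the groups did not overlap. Old unirradiated replicates 1 and 6, at 6.82 and 6.78, were far above the other 4, which lay between 4.53 and 4.98. The T cell marker sum was also highest in these 2 mice, 11.2 and 11.3 against 9.54 to 10.1 in the other 4. Between the ages the T cell sums overlapped, at 9.57 to 10.2 in young and 9.54 to 11.3 in old unirradiated mice. Of the 10 T cell markers, 0 were called higher in old mice and 1 lower, where 48.5% and 15.4% of all genes were. The part of T cells in the *Il18r1* signal was not tested. The second probe (A_55_P2092492) gave a like difference of 1.64, called in the fit of every probe. The change with irradiation was -0.02 in young mice (SE 0.29, limma adjusted p = 0.971) and -1.21 in old mice (SE 0.61, limma adjusted p = 0.140). The lowest irradiated old mice were replicates 4 and 6, at 2.52 and 2.79, and without them the change was -0.39, against -1.94 without replicates 2, 3 and 5. In young mice it was 0.49 without the mice with high hepatocyte markers, also not called.

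*Il18rap* encodes the accessory chain without which the IL-18 receptor does not signal. Its lowest, median and highest levels were -1.30, -0.14 and 1.17 in young unirradiated mice, of which 3 of 6 were well above background, and -0.57, 0.95 and 2.04 in young irradiated mice. Old mice had levels of 1.57, 2.45 and 2.94 without exposure and -0.19, 2.42 and 4.27 after it. *Il18rap* was 5.45-fold higher in old than in young unirradiated mice (log2 difference 2.45, SE 0.42, limma adjusted p = 0.000181), or 1.82 relative to the median of all genes, and the groups did not overlap. NK markers overlapped between these groups, with sums of 8.89 to 9.96 in young and 8.73 to 10.3 in old unirradiated mice. Of the 10 NK markers, 1 was called higher in old mice and 0 lower, where 48.5% and 15.4% of all genes were. After irradiation the change was 1.03 in young mice (SE 0.51, limma adjusted p = 0.113) and -0.30 in old mice (SE 0.69, limma adjusted p = 0.753). Without irradiated old replicates 4 and 6 the latter was 0.78 and without replicates 2, 3 and 5 it was -1.01, neither called. In young mice the change was 1.61 without the mice with high hepatocyte markers, also not called.

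*Nlrp3* encodes the sensor of the inflammasome that activates caspase-1 in myeloid cells. Its lowest, median and highest levels were -0.63, 0.29 and 0.76 in young unirradiated mice and 0.03, 0.33 and 0.77 in young irradiated mice. In old mice they were -0.38, -0.06 and 0.38 and, after irradiation, -0.70, 1.19 and 1.51. On this probe (A_52_P650540) irradiated old replicate 3 was the lowest of the 24 mice at -0.70, and the other 5 irradiated old mice lay between 1.03 and 1.51, above every unirradiated old mouse. The change was 0.98 in old mice (SE 0.36, limma adjusted p = 0.0469), with an unadjusted p above the threshold of 0.005. Without replicate 3 it was 1.31 and called (limma adjusted p = 0.00192), and without replicates 2, 3 and 5 it was 1.44 and called. Without replicates 4 and 6 it was 0.79 and not called. In young mice it was 0.15 (SE 0.23, limma adjusted p = 0.619). Between the ages *Nlrp3* differed by -0.25 (SE 0.22, limma adjusted p = 0.321), or -0.88 relative to the median of all genes. The second probe (A_55_P2273439) did not separate the old groups. It had irradiated replicates 3, 4 and 6 at 0.47, 0.25 and 0.18, within the unirradiated range of 0.11 to 1.01, with replicate 6 the lowest, and its change in old mice was 0.73, not called (limma adjusted p = 0.285 over all probes). Between the ages it gave 0.43, so that the direction for *Nlrp3* rests on the probe.

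**Figure D3:**
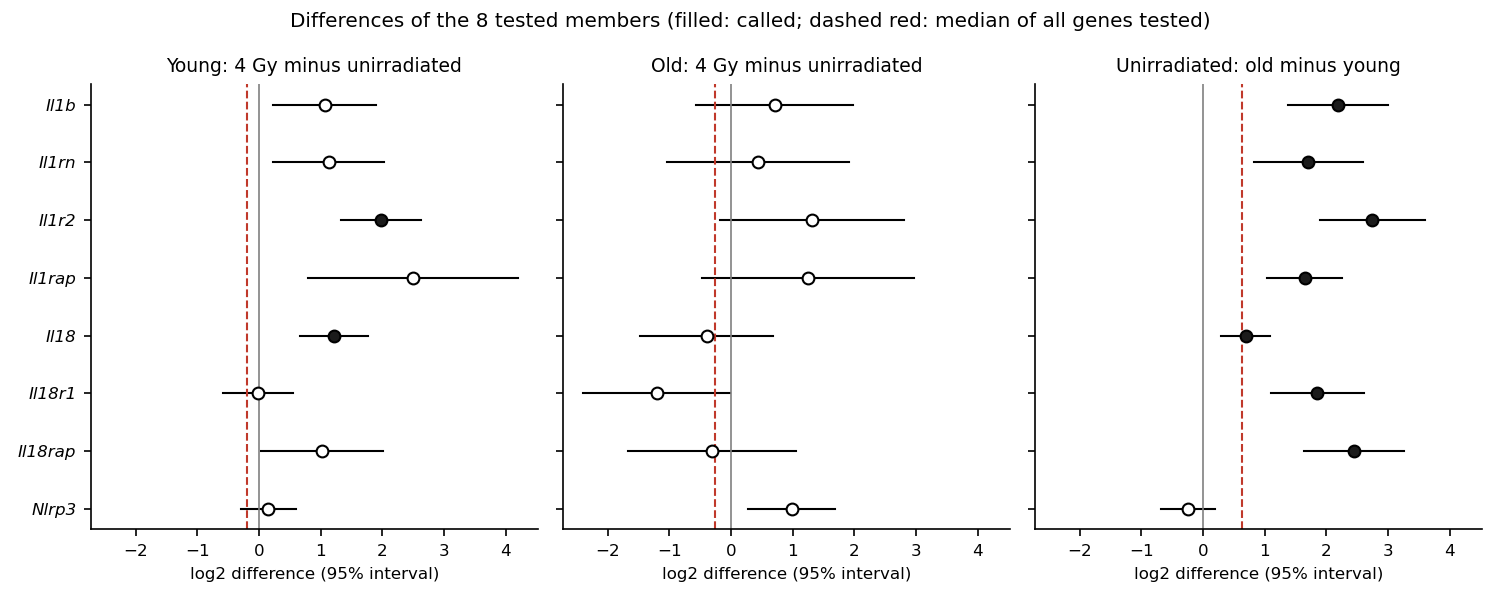
Log2 differences of the 8 tested members with approximate 95% intervals are shown for irradiated minus unirradiated young mice, irradiated minus unirradiated old mice and old minus young unirradiated mice (filled, called; dashed line, median of all genes tested). The intervals use the normal distribution and are narrower than the limma test implies. Those of *Il18rap* in young and *Il18r1* in old mice leave out 0, with unadjusted limma p of 0.063 and 0.067. In the age comparison 7 points lie right of the dashed line at 0.63, and *Il18* at 0.69 lies almost on it.

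**Figure D4:**
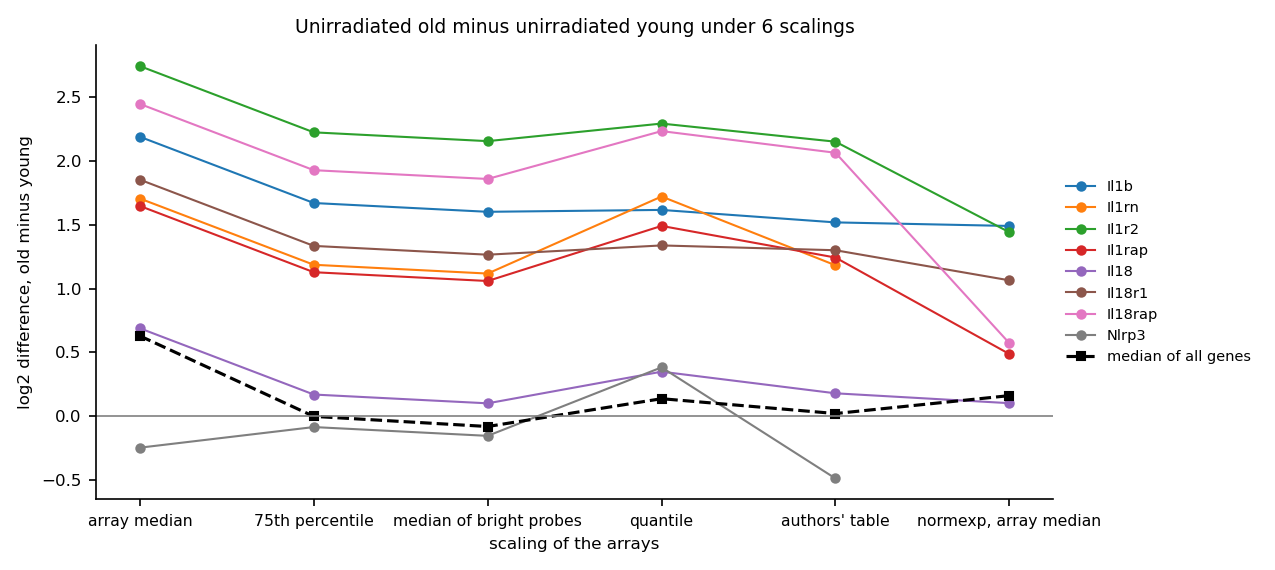
The log2 difference between old and young unirradiated mice is plotted for 8 members and for the median of all genes under 6 scalings or background corrections of the arrays. The median of all genes falls from 0.63 to between -0.08 and 0.16, *Il1r2*, *Il18rap* and *Il1b* stay at 1.52 or more under the first 5, and *Nlrp3* crosses 0 with quantile normalization.

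One slide per age held 2 unirradiated and 2 irradiated mice, so that irradiation could be compared within a slide. Every other slide held 4 mice of a single group, so that irradiation and slide cannot be told apart for those mice. No slide held mice of both ages. In young mice the differences there were 1.83 for *Il1r2*, 1.07 for *Il18*, 1.07 for *Il1b* and 1.20 for *Il1rap*. In old mice the slide held irradiated replicates 1 and 2, and the differences were 3.12 for *Il1r2*, 2.84 for *Il1rap*, 2.24 for *Il1b*, 1.87 for *Il1rn* and 1.37 for *Nlrp3*, each larger than over all 12 mice. For *Il18rap* it was 1.05, against -0.30 over all 12.

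Whether the response to x-rays differed between the ages was tested as an interaction over all 24 mice. For 0 of the 8 tested members was it called by limma, as for 0 of all genes tested, of which 23.6% had an unadjusted p below 0.05. The interaction was lower in old mice for 7 of 8 members, with a median of -0.94 against -0.24 over all genes. The lowest unadjusted p was that of *Il18*, whose response was lower in old than in young mice by a log2 difference of -1.61 (approximate 95% interval -2.86 to -0.35, limma adjusted p = 0.156). Without irradiated old replicates 4 and 6 it was -0.71 and not called. For *Il1r2* the difference was -0.67, with an approximate 95% interval from -2.37 to 1.04, so that equal and clearly unequal responses both lie within it. *Nlrp3* had the opposite sign, 0.83 (SE 0.43, limma adjusted p = 0.229). Replicates 4 and 6 weigh on these values. Without them the interaction was 0.54 for *Il1b*, 0.28 for *Il1r2*, 0.29 for *Il1rap* and 0.33 for *Il1rn*, with the sign turned, and -0.37 for *Il18r1* and -0.25 for *Il18rap*. Replicates 2, 3 and 5 weigh on them as well. Without these 3 mice 6050 genes were called for the interaction, among them *Il18* (-2.61) and *Nlrp3* (1.29). The irradiated old group is then replicates 1, 4 and 6, and its mean and spread are largely those of the alike replicates 4 and 6 that stand apart. Without replicate 3 alone 1052 genes were called, among them *Nlrp3* (1.16).

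Of 50 other genes of the pathway, grouped into lists of ligands and inhibitors, receptors, inflammasome parts, signal transducers and targets, 39 were tested. In young mice 11 (28.2%) were called higher after irradiation and 6 (15.4%) lower, where 14.3% and 21.1% of all genes were. In old mice the counts were 5 (12.8%) and 6 (15.4%), where 7.49% and 17.4% of all genes were called. Without irradiated old replicates 2, 3 and 5 they were 4 and 12, with 15.8% and 24.4% of all genes. Between the ages 33 (84.6%) were called higher in old unirradiated mice and 1, *Nlrp1b* (-1.32), lower, where 48.5% and 15.4% of all genes were. With the 4 other scalings the counts between the ages were 11 to 19 higher of 33 to 37 tested and 1 or 2 lower, where 4.46% to 17.1% of all genes were called higher and 21.1% to 28.1% lower. The median difference between the ages was 1.10 for the lists and 0.63 for all genes. The interaction was called by limma for 0 of the 39, and without irradiated old replicates 2, 3 and 5 for 1 as higher and 12 as lower.

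Of the 7 other ligands and inhibitors listed, *Il36a*, *Il36b*, *Il36g* and *Il36rn* were not found on the array under these names. *Il33* and *Il1f10* did not pass the filters, and *Il18bp* was the one that did. It encodes the secreted protein that binds IL-18 and is induced by interferon-gamma. Its lowest, median and highest levels were -1.04, -0.37 and 0.46 in young unirradiated mice and 2.03, 3.36 and 3.71 in young irradiated mice. Old mice had levels of 0.77, 1.44 and 1.77 without exposure and 2.78, 3.25 and 3.69 after it. The irradiated groups were above the unirradiated groups at each age without overlap, and the old above the young unirradiated mice. Such a separation after irradiation was shared by 9.46% of all genes at the young age and by 5.82% at the old age. The separation of *Il18bp* by age without exposure was shared by 37.4% of all genes. The log2 change with irradiation was 3.34 in young mice (SE 0.34, limma adjusted p = 1.22e-05) and 1.84 in old mice (SE 0.26, limma adjusted p = 0.000541), called under 15 of 15 and 15 of 16 alternatives. Macrophage markers moved with it in young mice. The irradiated mice lowest in *Il18bp*, replicates 1 and 6 at 2.03 and 2.49, had the lowest macrophage sums, 9.63 and 9.82, and the highest 3, replicates 2, 4 and 5 at 3.62 to 3.71, had sums of 11.3 to 11.5 and the high hepatocyte sums. Without the mice with high hepatocyte markers the change was 2.93 and called, and the part of macrophage RNA was not tested. The exception in old mice was the normexp background correction, with a change of 1.09. Between the ages the difference was 1.62 (limma adjusted p = 0.000113), or 0.99 relative to the median of all genes. The young unirradiated levels of *Il18bp* lay within the range of *Il18rap* in the same mice, -1.30 to 1.17, where 3 of 6 were well above background. The differences of *Il18bp* from these mice are therefore approximate. *Ifng*, which encodes interferon-gamma, was called higher after irradiation in old mice (log2 change 1.61, limma adjusted p = 0.00517), with a change of 1.19 in young mice that was not called (limma adjusted p = 0.0148) and was 1.83 and called without the mice with high hepatocyte markers. *Il18bp* and *Il18* both rose in irradiated young mice, by 3.34 and 1.21 on the log2 scale of their own probes.

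The receptor family holds *Sigirr*, an inhibitory member. It fell with irradiation at both ages, by 0.98 in young mice (limma adjusted p = 0.000603) and 1.33 in old mice (limma adjusted p = 0.00176). Its levels were 4.31 to 4.60 in young unirradiated mice and 3.23 to 4.17 in irradiated ones, and 4.64 to 5.34 against 3.16 to 4.09 in old mice, without overlap at either age. In that direction 15.2% of all genes did not overlap in young mice and 16.7% in old mice. *Il1rl1*, which encodes the receptor of interleukin-33, was 1.44 higher on the log2 scale in old unirradiated mice (limma adjusted p = 0.000392), and its change with irradiation was not called at either age over all 12 mice. In old mice it was -0.72, or -2.27 and called without irradiated replicates 2, 3 and 5 and 0.26 without replicates 4 and 6.

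Of the 16 inflammasome genes, 7 were called higher and 1 lower in irradiated young mice, 2 higher and 1 lower in irradiated old mice, and 13 higher and 1 lower between the ages. Of all genes, 14.3%, 7.49% and 48.5% were called higher in these comparisons and 21.1%, 17.4% and 15.4% lower. With the 4 other scalings 3 to 7 of 12 to 14 tested were called higher between the ages and 3 to 7 in irradiated young mice, and 4 of 16 in the latter without the mice with high hepatocyte markers. *Pycard*, the adaptor that links sensors to caspase-1, was 1.30 higher in irradiated young mice (SE 0.25, limma adjusted p = 0.000935). Without the young mice with high hepatocyte markers the change was 0.94 and not called. Its levels in irradiated young replicates 2, 4 and 5 were 7.79, 8.07 and 8.03, against 6.68 and 6.98 in replicates 1 and 6, which had the lowest macrophage sums. In old mice its change was -0.64 and not called (limma adjusted p = 0.251). That value rests on irradiated replicates 4 and 6, at 4.95 and 5.02 against 6.23 to 7.46 in the other 4, and was -0.0086 without them. Without replicates 2, 3 and 5 it was -1.48 and called. The difference of the responses was -1.94 (limma adjusted p = 0.107), -1.31 without replicates 4 and 6, and -2.78 and called without replicates 2, 3 and 5. *Panx1*, a membrane channel that releases ATP, was called higher at both ages, with changes of 1.35 in young and 0.91 in old mice, the latter 0.85 and not called without irradiated old replicates 2, 3 and 5. *Casp1*, which encodes caspase-1, was called higher in young mice (0.57, or 0.32 and not called without the mice with high hepatocyte markers), and *Nlrc4*, a sensor of bacterial proteins, was called lower at both ages (-0.87 in young and -2.44 in old mice). *Nlrp1a* and *Naip5*, which encode further sensors, and *Txnip*, whose product can bind NLRP3, were called higher in old than in young unirradiated mice, by 1.30, 0.82 and 1.36, with no call after irradiation. *Nlrp1a* turned its sign between the ages under 3 of 14 alternatives, down to -0.81.

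Among the 15 signal transducers, 2 were called higher and 4 lower in irradiated young mice, 1 higher and 4 lower in irradiated old mice, and 13 higher and 0 lower between the ages. The shares of all genes called were 14.3%, 7.49% and 48.5% as higher and 21.1%, 17.4% and 15.4% as lower. With the 4 other scalings 5 to 7 of 13 or 14 tested were called higher between the ages and 0 or 1 lower, and 1 to 3 lower in irradiated old mice. *Tollip*, a brake on the IL-1 receptor, was called higher in irradiated mice at both ages, by 1.83 in young mice (limma adjusted p = 0.000270) and 1.18 in old mice (limma adjusted p = 0.0196). The latter was 0.89 and not called without irradiated old replicates 2, 3 and 5. *Peli1*, a ubiquitin ligase of the pathway, fell by 0.95 in young mice (limma adjusted p = 0.00317), and *Tnfaip3*, an inhibitor of NF-κB, was called lower at both ages (-1.12 and -0.97). *Myd88*, the adaptor of both receptors, was 1.60 higher in old unirradiated mice (limma adjusted p = 1.93e-05) and was not called after irradiation at either age over all 12 mice, with a change of 0.56 in young mice that was 0.74 and called without the mice with high hepatocyte markers. *Nfkbia*, which encodes an inhibitor of NF-κB, and *Tab2*, an adaptor of the kinase TAK1, were also called higher in old mice, by 0.85 and 0.87. In irradiated old mice *Nfkbia* was called lower (-1.75) without replicates 2, 3 and 5.

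Of the 9 target genes listed, 5 were tested and *Cxcl1*, *Cxcl2*, *Ptgs2* and *Csf3* lay too near background. *Il6*, a cytokine induced by IL-1, was 2.46 higher in old than in young unirradiated mice (limma adjusted p = 1.94e-06), with levels of -1.61 to -1.14 in young and 0.55 to 1.80 in old mice, and remained called under the 13 alternatives that gave it a value. Normexp, under which 0 genes were called between the ages, was not among them. In irradiated old mice *Il6* ranged from -2.90 to 1.63, a change of -2.05 that was not called (limma adjusted p = 0.0281), and that was -3.49 and called without replicates 2, 3 and 5. *Ccl2*, a monocyte chemokine, was 1.87 higher in irradiated young mice (limma adjusted p = 0.000618) and 1.25 higher in old than in young unirradiated mice. Its levels in young unirradiated mice were -2.16 to -1.19. Levels as low as those of *Il6* and *Ccl2* in these young mice lie near background. *Il1rn*, at -2.84 to -0.34 in the same mice, was well above it in 1 of 6. The differences of *Il6* and *Ccl2* from these mice are therefore approximate. *Icam1*, an adhesion molecule, and *Tnf*, the cytokine TNF, were called higher in old mice, by 1.43 and 0.96, and not called after irradiation over all 12 mice of an age. In irradiated old mice *Icam1* was called lower (-2.10) without replicates 2, 3 and 5.

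**Figure D5:**
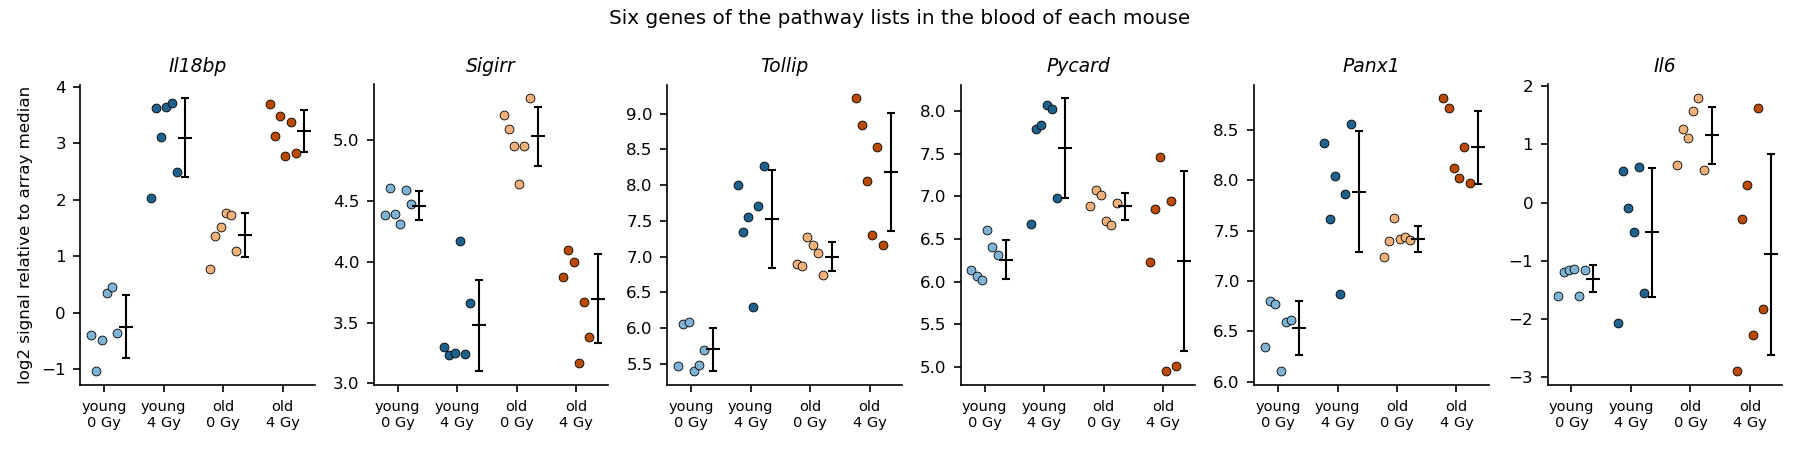
The log2 signal relative to the array median of *Il18bp*, *Sigirr*, *Tollip*, *Pycard*, *Panx1* and *Il6* is plotted for each of 24 mice by group, with the mean and SD of each group of 6. *Il18bp* is above its unirradiated group in every irradiated mouse at both ages and *Sigirr* is below it.

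For the 3 members well above background in all 24 mice, the genes with the most similar pattern were found by the root mean square difference of the log2 levels over 24 mice, each gene centred on its own mean. For *Il1b* they were *Dfna5* (0.26) and NAP095950-001 (0.28), against a median of 1.57 over all genes tested. *Il1r2* was nearest to *Chil1* and *Stfa2l1* (0.33 each, against a median of 1.91). *Il18r1* was nearest to ENSMUST00000089689 (0.37) and *Crtam* (0.43), against a median of 1.17. All 24 arrays share one scaling, so part of a likeness can come from it.

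The promoters of *Il1b*, *Il1r2* and *Il18rap*, the members called higher in old unirradiated mice under each of 5 scalings, are shown for the 250 bases before the RefSeq start site (GRCm38.p6), 5′ to 3′ on the strand of the gene. Capitals mark matches, on either strand, to kappaB (GGGA, any 4 bases, then CC), AP-1 (TGANTCA), C/EBP (TTNNGNAA), PU.1 (GAGGAA) and ISRE (GAAA, any 2 bases, then GAAA). Some windows of C/EBP and PU.1 letters can overlap. Il1b lies at chr2:129371140-129371389 (minus strand), Il1r2 at chr1:40085843-40086092 (plus) and Il18rap at chr1:40515112-40515361 (plus).
Il1b: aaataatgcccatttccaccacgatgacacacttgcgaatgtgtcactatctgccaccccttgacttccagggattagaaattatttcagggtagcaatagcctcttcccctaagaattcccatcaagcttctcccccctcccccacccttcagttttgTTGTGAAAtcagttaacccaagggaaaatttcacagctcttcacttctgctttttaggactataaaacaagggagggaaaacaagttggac
Il1r2: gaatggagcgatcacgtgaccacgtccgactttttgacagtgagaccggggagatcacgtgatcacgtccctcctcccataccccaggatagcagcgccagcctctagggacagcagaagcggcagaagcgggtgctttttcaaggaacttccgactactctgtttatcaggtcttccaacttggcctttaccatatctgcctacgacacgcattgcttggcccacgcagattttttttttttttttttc
Il18rap: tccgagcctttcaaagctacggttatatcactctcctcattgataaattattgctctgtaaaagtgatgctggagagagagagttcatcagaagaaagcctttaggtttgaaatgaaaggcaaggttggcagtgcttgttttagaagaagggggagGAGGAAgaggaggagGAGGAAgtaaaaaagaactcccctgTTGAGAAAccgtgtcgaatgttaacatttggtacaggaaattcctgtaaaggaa
The Il1b window held 1 C/EBP match, starting 91 bases before the start, the Il1r2 window held 0 matches to the 5 motifs, and the Il18rap window held 2 PU.1 matches (94 and 79 bases before the start) and 1 C/EBP match (54 bases before it). Over 32851 windows of this length, 36.8% held the C/EBP letters, 23.3% those of PU.1, 17.6% those of kappaB, 6.75% those of AP-1 and 2.98% those of ISRE. No motif of the 5 was found in all 3 windows, and nothing about a factor's binding follows from these letters.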

How the data were processed

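Blood RNA of 24 mice was measured on 1-colour (Cy3) Agilent mouse 4x44K v2 arrays after globin RNA had been reduced. The intensity values deposited by the authors, 1 file per array, are background-corrected signals of Feature Extraction 12.0.2 (per the submitters' processing notes), not scaled between arrays. The log2 values that the authors deposited for the same arrays were filtered and normalized by them. Their difference from the scanner values varied with the level, unlike the median normalization that the methods state. They served as an alternative.

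From the intensities, spots flagged as non-uniform were removed, log2 was taken and each array's median over 43020 spots that are not controls was subtracted. Repeat spots were averaged. Of 39429 probes, 24130 were flagged or dim in less than 25% of arrays, and 22484 of these also departed 1.5-fold from their own median in at least 20% of arrays. Each of the 17805 genes was represented by its brightest probe on average. Groups follow the sample titles, and the 6 mice of a group are separate animals.

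Each comparison used limma 3.58.1 (lmFit and eBayes, two-sided, R 4.3.3) on its 2 groups, and the interaction used all 24 arrays, with Benjamini-Hochberg adjustment over all genes tested. Bounds set a probe not well above background at the lowest such signal of its array. Promoters came from RefSeq (GRCm38.p6), where 10 of 10 members matched, and figures and motifs from Python 3.11.15, pandas 2.3.3 and matplotlib 3.10.9. The code was tested on simulated data. Probe coordinates are those of the files (mm9), and their place in exons or UTRs was not analysed here.

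The members, gene lists and alternatives were chosen with earlier results of these data known. Genes named are the members, up to 5 genes of each pathway list that were called in a comparison, by mean signal, and the 2 genes nearest to each member above background on all arrays. *Casp1*, *Nlrc4*, *Nlrp1b* and *Tnfaip3* were named after their values were seen. Alternatives were other scalings (75th percentile, median of bright probes, quantile), normexp (offset 50), the authors' log2 values, other filters, the mean of the probes of a gene that passed the filters, a random variance test, trend and robust variance, 1 fit of 24 arrays, the replicate number or slide as a block, and leaving out mice. Fitting every probe, counting the closest arrays as 1 sample and leaving out irradiated old replicates 4 and 6 or the young mice with high hepatocyte markers were added after the data had been seen. In each group the 2 closest arrays differed 2.87 to 4.58 times more than repeat spots within an array did, which does not show whether they hold RNA of separate mice. They were kept separate, as the labels give them. Blood counts, quantitative PCR and class prediction were not analysed here.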

Additional observations from a re-analysis of the deposited data

Results flagged for a closer look

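Of 40 sets of 6 mice (10 members in 4 groups), 3 held a mouse whose gap to the next was large for the range of its group, a rate near the 1 in 20 that chance gives. *Il1rap* (A_52_P467232) was at 1.16 in unirradiated young replicate 5, where the other 5 mice lay between -0.52 and -0.07. The hepatocyte marker sum of that mouse was 11.5, the highest of its group. *Il1a* was at -0.25 in unirradiated old replicate 4, the 1 mouse of 24 in which its probe was well above background. The same mouse had the highest *Il1b*, *Il1r2* and *Il1rn* of its group and the highest neutrophil marker sum, 14.1. *Nlrp3* (A_52_P650540) was at -0.70 in irradiated old replicate 3, where the other 5 mice lay between 1.03 and 1.51. Its second probe (A_55_P2273439) had this mouse at 0.47, within the range of its group.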

How the results depend on the processing

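Counts are of the members tested under each setting. Between unirradiated old and young mice 7 were called, but 4 with 1 fit of all 24 arrays, scaling to the 75th percentile, the authors' deposited values or the median of bright probes (those well above background in every mouse), and 0 with normexp. The genes called of all tested fell from 11370 to 6217, 5830, 4443, 5546 and 0 under these, and to 6047 with quantile normalization. In young mice 2 members were called after irradiation, but 1 with 1 fit, the authors' table, the closest pairs counted as 1 sample or normexp, and 5 with the slide as a random block. All genes called there fell from 6300 to 3994 with 1 fit, 3750 with the authors' table and 837 with normexp. In old mice 0 members were called, but 1 with 1 fit, the authors' table, every probe fitted separately, the mean of the probes past the filters, no filters, without the 2 irradiated mice that stand apart or without the 3 with high hepatocyte markers. All genes called there moved from 4429 to 2841 (authors' table), 2878 (closest pairs), 8 (normexp) and 7169 (without the 3 mice). For the interaction 0 members were called, but 2 without the 3 mice. All genes called there were 0, but 8 with the 75th percentile, 8 with the bright probes, 7 with quantile normalization, 2 with the mean of probes, 32 with the slide as a random block, 27 without the 2 mice and 6050 without the 3. Leaving out 1 mouse at a time gave 5 to 7 members between the ages, 2 to 3 in young, 0 to 1 in old and 0 to 1 for the interaction, and 10396 to 11650, 5443 to 6591, 3235 to 4637 and 0 to 1052 genes. The cause of these shifts was not tested.

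Directions turned as follows, in each case for a value that was not called unless named. In old mice, *Il18* became 0.27 with normexp, 0.19 within the slide and 0.50 without the 2 mice, and *Il18rap* became 0.21 with the closest pairs, 0.044 with the bright probes, 0.37 with normexp, 1.05 within the slide and 0.78 without the 2 mice. Without the 3 mice, *Il1rap* became -0.14 and *Il1rn* -0.22. In young mice, *Il18r1* became 0.066 with the closest pairs, 0.014 with the bright probes, 0.28 with normexp, 0.19 within the slide and 0.49 without the mice with high hepatocyte markers, and *Nlrp3* became -0.014 with the authors' table. Between the ages, *Nlrp3* became 0.43 without the 1.5-fold filter or without filters, where its other probe represents it, and 0.38 with quantile normalization, and *Il1rap*, called in the main setting, became -0.26 with the mean of its probes past the filters. For the interaction, without the 2 mice *Il1b* became 0.54, *Il1r2* 0.28, *Il1rap* 0.29 and *Il1rn* 0.33. With the authors' table *Il18r1* became 0.046, where another probe represents it, and *Il1rn* 0.32. With normexp *Il18rap* became 0.082 and *Il1r2* 0.22, and with the mean of the probes past the filters *Il1rap* became 1.17. With 1 mouse left out at a time, the ranges that crossed 0 were -0.16 to 0.20 for *Il18r1* and -0.015 to 0.26 for *Nlrp3* in young mice, -0.74 to 0.15 for *Il18rap* in old mice and -0.73 to 0.015 for the interaction of *Il1b*. Of the values of single members under all alternatives, 905 kept direction and side of the threshold, 40 lost the call, 17 gained it and 38 turned. *Il1rn* and *Nlrp3* gave no value with normexp.

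The replicate numbers do not pair the mice: same-numbered mice had correlations of -0.29 to 0.29 in young mice, -0.20 to 0.34 in old mice and -0.08 to 0.16 between the ages, and 1, 3 and 0 of 6 correlated best with their own number. With the replicate block the counts were 5070, 3469 and 10369 genes and 0 for the interaction, and 3, 0, 6 and 0 members. The block added *Il1b* in young mice and lost *Il18* between the ages.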
